A study of Mus musculus with 3 samples.

Results

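The 9 genes described here encode replication-independent histone variants: H2afz and H2afv (both H2A.Z), H2afx (H2A.X), H2afy and H2afy2 (macroH2A), H3f3a and H3f3b (both H3.3), H1f0 (the linker histone H1.0) and Cenpa (CENP-A). They were chosen as a named list by their gene symbols, and make up 9 of the 24421 genes counted in each of 3 RNA-Seq libraries. The libraries compared female mouse ES cells of an undifferentiated line, EL16.7 (strain F2:129S1/CastEiJx 129S1) that had received a control (scramble) shRNA with cells that had received either of the shRNAs against NUP153, named NUP153 KD-1 and NUP153 KD-2, with 1 library per condition. NUP153 is a protein of the nuclear pore complex. The labels give wild type as the genotype of the control cells and NUP153 knockdown for the others. All 3 cultures were transduced with lentivirus, kept in LIF on γ-irradiated mouse embryonic fibroblasts of DR4 mice, and selected with 2 μg/ml puromycin for 2 days. Total RNA depleted of ribosomal RNA was sequenced as 50 bp single-end reads.

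Canonical histones are made in bulk during S phase from clustered genes whose mRNAs end in a conserved stem-loop instead of a poly(A) tail. Histone variants are mostly encoded by single genes with polyadenylated mRNAs that are transcribed outside of S phase too, and dedicated chaperones place them at chosen sites: H2A.Z and H3.3 at promoters and enhancers, CENP-A at centromeres, and macroH2A on silenced chromatin such as the inactive X chromosome. H2AX is an exception among them, as its gene gives both a short mRNA that ends in the stem-loop and a longer polyadenylated mRNA. Cell cycle phase was not measured in these libraries, so the timing of transcription that the name of the group implies could not be checked.

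The stem-loop separates H2afx from the other members in sequence as well. In the annotated transcripts of GENCODE (GRCm38), the histone stem-loop consensus was found in 1 of 9 members, in 46 of 68 replication-dependent histone genes and in 99 of 21877 protein-coding genes (0.453%). The replication-dependent genes were listed by their gene symbols alone, and the list includes Hist1h1t, a linker histone gene of the testis. The stem-loop of H2afx is shown beside those of Hist1h1t and Hist1h4j, genes of this list described further on. The 16 bases of the stem-loop are in capitals, with 5 bases on either side.

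H2afx: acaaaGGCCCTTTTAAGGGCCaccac

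Hist1h1t: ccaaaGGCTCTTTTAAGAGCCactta

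Hist1h4j: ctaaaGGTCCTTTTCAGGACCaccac

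In H2afx these bases were 547 to 562 of a transcript of 1384 bases, and 822 bases of the longer mRNA followed them. The match is a description of the letters and not a measurement of which mRNA end was used.

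The pairs that encode H3.3 and H2A.Z can be told apart by reads because their coding sequences have diverged. Both H3.3 genes encode the same protein, and their coding sequences of 411 bases differed at 95 positions, of which 81 were the last base of a codon (76.9% identity). The H2A.Z genes encode near-identical proteins, and their coding sequences of 387 bases differed at 81 positions, of which 70 were the last base of a codon (79.1% identity). The first 60 coding bases are shown for each pair, with the 13 differing bases in capitals.

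H3f3a: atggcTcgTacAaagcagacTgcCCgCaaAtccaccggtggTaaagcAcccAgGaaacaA

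H3f3b: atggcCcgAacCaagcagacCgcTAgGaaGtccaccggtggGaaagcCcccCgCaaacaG

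H2afz: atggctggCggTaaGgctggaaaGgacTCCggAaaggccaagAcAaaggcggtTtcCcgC

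H2afv: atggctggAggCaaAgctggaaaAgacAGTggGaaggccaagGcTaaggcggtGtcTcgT

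The longest run of identical bases was 23 for the H3.3 pair and 14 for the H2A.Z pair, which is shorter than a read of 50 bases. Other copies share more sequence with some members. Of all 50-base windows of the transcript, 33.2% in H2afz were also found in 4 other annotated genes, 14.9% in H3f3a in 38 other genes, 8.40% in H3f3b in 3 and 6.68% in H2afy2 in H2afy3. In H2afx 6.14% of windows were shared with 21 genes, among them H2afj and many H2A genes of the histone clusters, and H2afv, H2afy, H1f0 and Cenpa shared 0 windows. Reads from shared windows map to several places and may have been lost by the mapping quality filter, so the levels of H2afz and H3f3a in particular may be understated.

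Reads on genes numbered 69839336 to 85258834 per library. Nup153 itself was lower in both knockdowns, with 27870 reads in control, against 16451 under KD-1 and 11126 under KD-2. Reads were divided by upper-quartile factors before any ratio. Changes are given as log2 ratios of these scaled reads with a pseudocount of 0.5 reads, and their 95% intervals are exact Clopper-Pearson intervals that cover counting error only, since 1 library per condition has no replicates and reads of amplified cDNA are not independent molecules. A gene is counted as higher or lower when it passed 1.5-fold, which is 0.58 on the log2 scale, and this is not a test. Scaling by library totals instead moved the median log2 ratio over genes by 0.16 in KD-2 and by -0.01 in KD-1, and raised the share of genes past 1.5-fold in KD-2 that were higher from 62.6% to 82.8%. Between the knockdowns, the share of such genes that were higher in KD-1 went from 46.3% to 25.9%. ES cell markers such as Nanog (44622, 61737 and 39339 reads in control, KD-1 and KD-2) were present in all libraries, the fewest reads being those of Utf1 (127, 240 and 308). Of 10 such markers 8 were above control in KD-1, with a median log2 ratio of 0.15, and 1 was past 1.5-fold. In KD-2 7 of 10 were below control, with a median of -0.30, and 2 were lower and 1 higher. Fibroblast markers, which the feeder cells express, were not at 0 in any library. Their summed reads were 95685 in control, 51618 under KD-1 and 185636 under KD-2, and 12 of 12 were below control in KD-1 (log2 ratios -2.01 to -0.12) and 12 of 12 above it in KD-2 (0.37 to 1.30). Fewer cells of a type and less RNA per cell cannot be told apart in bulk samples. Both knockdowns were set against the same control library.

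Most of the histone variant genes stayed within 1.5-fold of control, and the exceptions differed between the knockdowns. In KD-1 H2afy alone was past 1.5-fold, and it was lower (1 of 9 members). Of the 16670 genes averaging at least 10 reads, 14.2% were past it in this library, 8.63% higher and 5.62% lower, and of the 7881 genes averaging at least 1000 reads 4.2% were. In KD-2 H2afx and H1f0 were higher (2 of 9), where 27.3% of genes were past it, 17.1% higher and 10.2% lower, and 17.4% of those averaging at least 1000 reads. H2afx and H1f0 were also the members past 1.5-fold between the knockdowns, both at the lower level in KD-1 (2 of 9). In this comparison 30.1% of genes were past it, 13.9% higher and 16.1% lower in KD-1, and 20.2% of those averaging at least 1000 reads. Of the members 0 of 9 passed it in the same direction in both knockdowns, where 3.64% of genes were higher in both and 0.99% lower in both. The median log2 ratio of the 9 genes was -0.02 under KD-1 and -0.04 under KD-2, beside medians of -0.02 and -0.16 over the genes averaging at least 1000 reads. In KD-2 64.4% of these abundant genes were below control, and 51.7% of the genes averaging at least 10 reads. Over the scalings the share of abundant genes below control ran from 49.97% to 64.4% and their median from -0.16 to 0.0002, moving with the ratios of every other gene. The shares of members past the threshold are based on 9 genes and are not read as different from those of all genes.

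**Figure D1:**
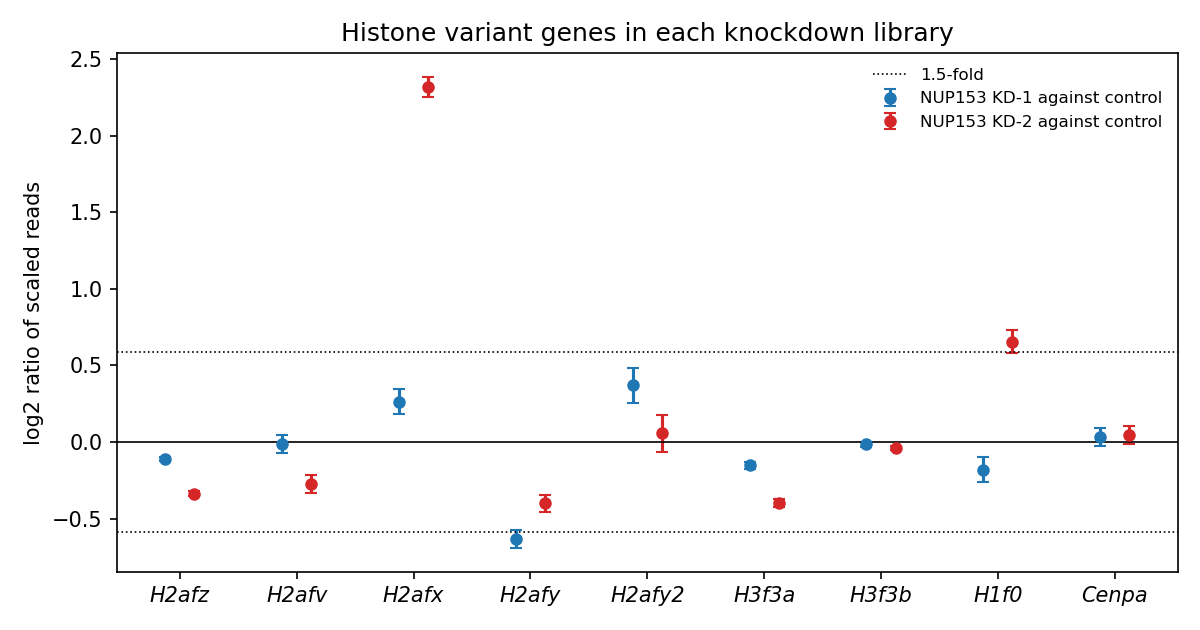
Log2 ratio of scaled reads in NUP153 KD-1 (blue) and NUP153 KD-2 (red) against control for each histone variant gene. Bars are 95% counting intervals and dotted lines mark 1.5-fold. H2afx in KD-2 stands at 2.32, far above the other points, while Cenpa and H3f3b lie near 0 in both knockdowns.

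The levels of the members covered a range of more than 100-fold. On the scale of reads per kilobase of exon, scaled to the reads on genes of each library (RPKM), which allows levels of different genes to be compared, control cells had 1112 for H2afz, 373 for H3f3b and 116 for H3f3a. H2afv followed at 39.8 RPKM, then Cenpa at 35.0, H2afy at 34.2, H2afx at 20.9, H1f0 at 15.5 and H2afy2 at 6.81. Cenpa and H2afy were neighbours whose counting intervals overlapped (from 33.9 RPKM up for Cenpa, and up to 35.2 for H2afy), and the other neighbours were separated by more than counting error. The places of Cenpa and H2afy depend on the transcripts counted, since all annotated exons in place of the exons of coding transcripts gave 9.79 and 10.7 RPKM. H2afz alone accounted for 63.4% of the summed RPKM of the 9 genes in control, 62.5% under KD-1 and 56.4% under KD-2.

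In KD-1 the order of the first 5 genes was the same as in control, and H2afx at 24.9 RPKM stood above H2afy at 21.9. In KD-2 H2afx reached 116 RPKM, above H3f3a at 98.2, with H2afz and H3f3b alone above it. Its share of their summed RPKM was 1.19% in control, 1.52% under KD-1 and 6.67% under KD-2. RPKM is scaled by library totals, and on this scale H3f3b was 373 in control, 367 under KD-1 and 406 under KD-2, although its scaled reads hardly differed.

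**Figure D2:**
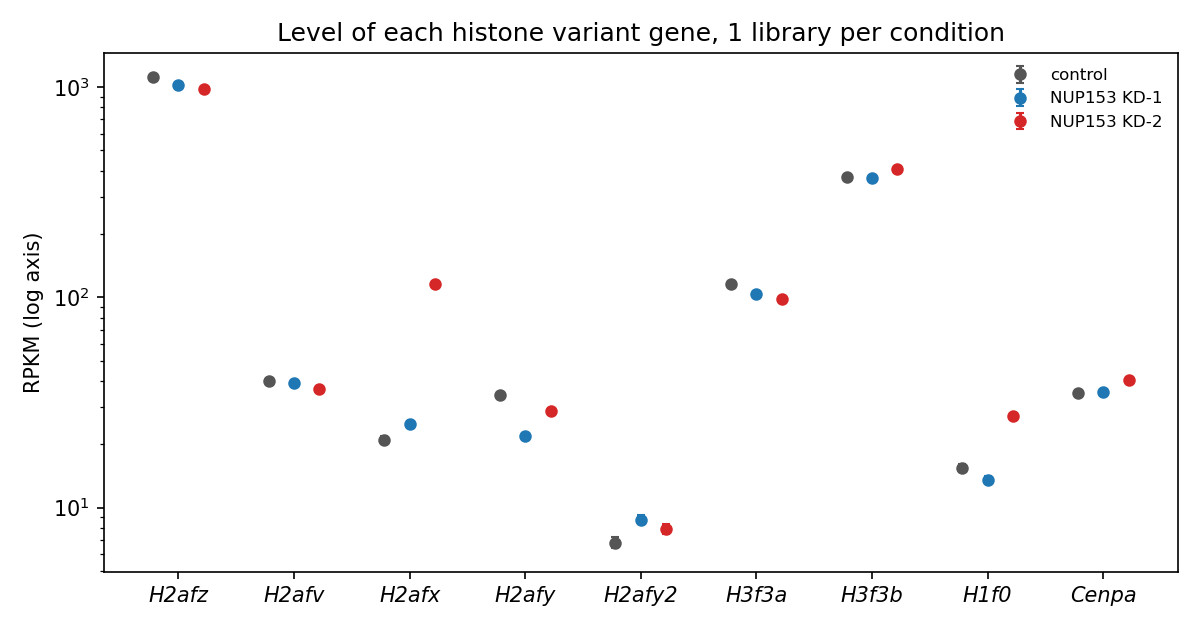
Level of each histone variant gene in RPKM (log axis) in the control library (grey), NUP153 KD-1 (blue) and NUP153 KD-2 (red). Bars are exact Poisson 95% intervals, mostly smaller than the points. H2afz is the highest in each library at 982 to 1112 RPKM, and H2afx moves from 20.9 RPKM in control to 116 in KD-2.

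H2A.Z replaces H2A in the nucleosomes that flank start sites, and H2afz (chr3:137864487-137866922, + strand, GRCm38) is its main gene. It had 85986 reads in control, against 93404 under KD-1 and 73347 under KD-2. The log2 ratio was -0.11 under KD-1 (-0.12 to -0.10) and -0.34 under KD-2 (-0.35 to -0.32), so that it was below control in both libraries and short of 1.5-fold in each. Over the scalings the value in KD-2 ran from -0.34 to -0.18, a range wider than its counting interval. The paralog H2afv (chr11:6427229-6444443, - strand) had 4702, 5461 and 4192 reads in control, KD-1 and KD-2. Its log2 ratio was -0.01 in KD-1 (-0.07 to 0.04), with a sign that other scalings turned, and -0.27 in KD-2 (-0.33 to -0.21), where the scalings gave -0.27 to -0.11. H2afz supplied 94.8% of the reads of both genes in control, 94.5% under KD-1 and 94.6% under KD-2. The difference between control and KD-1 was small but exceeded counting error, since the interval was 94.7% or more in control and 94.6% or less in KD-1.

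The genes that exchange H2A.Z are the subunits of the SRCAP, TIP60/EP400 and INO80 remodellers and its chaperones. Of 11 such genes, 0 passed 1.5-fold under KD-1 and 0 under KD-2, with median log2 ratios of 0.07 and -0.26. The median in KD-2 ran from -0.26 to -0.10 over the scalings, and its difference from that of genes averaging at least 1000 reads was -0.10. A scaling moves all ratios of a library alike, so such a difference cannot change with it, here or in the lists below. With upper-quartile scaling 9 of the 11 were below control in KD-2, where 64.4% of genes averaging at least 1000 reads were. The lowest were Ino80 at -0.53 and Anp32e, the chaperone that removes H2A.Z, at -0.52. Srcap, the ATPase that inserts H2A.Z, had 3720 reads in control, against 5771 under KD-1 and 3354 under KD-2 (log2 ratios of 0.40 and -0.26), and Ep400 had 0.28 and -0.46. Between the knockdowns 3 of the 11 were past 1.5-fold, all higher in KD-1, where 13.9% of all genes were, and this count ran from 0 to 3 over the scalings. In KD-2 7 of 10 ES cell markers were also below control (median -0.30) and 12 of 12 fibroblast markers above it (median 0.78). Their part in the result was not tested.

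H3.3 is the H3 variant of active genes, and is also deposited at telomeres and other repeats. H3f3b (chr11:116021912-116027962, - strand) had 67885 reads in control, against 78661 under KD-1 and 71207 under KD-2. It was the steadiest of the abundant members, with log2 ratios of -0.02 (-0.03 to -0.0012) and -0.04 (-0.05 to -0.02), whose signs changed with the scaling. H3f3a (chr1:180800832-180813943, - strand) had 25208, 26581 and 20585 reads in control, KD-1 and KD-2, and its log2 ratios were -0.15 (-0.18 to -0.13) and -0.40 (-0.43 to -0.37), the latter between -0.40 and -0.24 over the scalings. The H3f3a share of the H3.3 reads went from 27.1% in control (interval 26.8 to 27.4) to 25.3% under KD-1 (up to 25.5) and 22.4% under KD-2 (22.2 to 22.7). The intervals of the 3 libraries did not overlap. These shares do not depend on the scaling of the libraries, because both genes were counted in the same library.

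Both H3.3 genes encode the same protein from promoters that look different. The 250 bases upstream of the start are shown from RefSeq (GRCm38.p6), which had a promoter entry for 8 of the 9 members, at chr1:180813606-180813855 for H3f3a and chr11:116024505-116024754 for H3f3b, both read from the - strand. Both windows lie inside the gene spans given above. Each belongs to a single RefSeq start, and annotated starts further upstream were not searched. Capitals mark the motifs that were searched for on both strands: the CCAAT box (CCAAT, or ATTGG on the other strand), the TATA box (TATAAA) and the GC box (GGGCGG).

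H3f3a: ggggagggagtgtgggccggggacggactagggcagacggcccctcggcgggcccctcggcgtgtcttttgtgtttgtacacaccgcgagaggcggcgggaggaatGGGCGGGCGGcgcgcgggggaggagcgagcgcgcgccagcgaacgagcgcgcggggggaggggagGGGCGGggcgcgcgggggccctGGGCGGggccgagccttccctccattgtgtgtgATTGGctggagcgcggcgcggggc

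H3f3b: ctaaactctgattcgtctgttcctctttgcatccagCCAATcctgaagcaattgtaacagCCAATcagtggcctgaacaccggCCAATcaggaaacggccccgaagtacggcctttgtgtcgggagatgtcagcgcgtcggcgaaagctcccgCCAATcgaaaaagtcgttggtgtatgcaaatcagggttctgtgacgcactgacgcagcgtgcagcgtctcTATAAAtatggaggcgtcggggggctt

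H3f3a had 4 GC boxes, the first pair overlapping each other, and 1 CCAAT box. H3f3b had 4 CCAAT boxes and the 1 TATA box found among the members, and no GC box. Of 32851 promoters, 33.8% held the CCAAT box, 12.4% the TATA box and 32.7% the GC box. CCAAT boxes were found in 5 of the 8 members, H2afz, H2afv, H3f3a, H3f3b and Cenpa, and the CHR element of cell cycle genes (TTTGAA, in 16.0% of promoters) in H2afv. The E2F sites searched (TTTGGCG and TTTCGCG) and the CRE core (TGACGT) were not among the letters of these windows.

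H3.3 is deposited by the HIRA complex (with Ubn1, Ubn2, Cabin1 and Asf1a) and by Daxx with Atrx. Of 8 genes of H3.3 deposition, 0 passed 1.5-fold in KD-1 and 2 were lower in KD-2, Asf1a (4370 reads in control, against 4678 under KD-1 and 3005 under KD-2, log2 ratio -0.65 in KD-2) and Dek (-0.63). The count in KD-2 ran from 0 to 2 over the scalings. The medians were 0.12 and -0.32, the latter between -0.32 and -0.16 over the scalings. The latter differed by -0.16 from that of genes averaging at least 1000 reads, and 10.2% of all genes were lower in KD-2. With upper-quartile scaling Daxx was the single gene of the list above control in KD-2 (0.17), and over the scalings 1 to 2 genes were. In the same library 7 of 10 ES cell markers were below control (median -0.30) and 12 of 12 fibroblast markers above it (median 0.78). Their part in the result was not tested.

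MacroH2A carries a large additional domain and marks silenced chromatin. H2afy (chr13:56073619-56136361, - strand), which encodes macroH2A1, had 5294 reads in control, against 3996 under KD-1 and 4317 under KD-2. Both knockdown libraries were below control, with log2 ratios of -0.63 under KD-1 (-0.69 to -0.57, or 1.55-fold lower) and -0.40 under KD-2 (-0.46 to -0.34). The value in KD-2 ran from -0.40 to -0.24 over the scalings. The value in KD-1 lies close to the threshold, which its interval includes, and 198 of the 7881 genes averaging at least 1000 reads were lower still. H2afy2 (chr10:61738665-61784147, - strand), which encodes macroH2A2, had the fewest reads of the members, 1071 in control, 1621 under KD-1 and 1200 under KD-2. Its log2 ratio was 0.37 under KD-1 (0.26 to 0.48) and 0.06 under KD-2 (-0.06 to 0.18), so it was above control where H2afy was lowest. Exons of H2afy2 overlap Aifm2 on the opposite strand. The labels do not say whether the counting used the strand, and without it the reads of these genes cannot be told apart. H2afy supplied 83.2% of the macroH2A reads in control (82.2 to 84.1), 71.1% under KD-1 (69.9 to 72.3) and 78.2% under KD-2 (77.1 to 79.3). The fibroblast markers were also lower in KD-1 than in control, 5 of 12 by less than H2afy was and 7 by more. Their part in the result was not tested, and in KD-2 all 12 of them were above control while H2afy was below it.

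H2AX is the H2A variant whose phosphorylated form marks DNA breaks. H2afx (chr9:44334694-44336077, + strand, a gene of 1 exon) had 2092 reads in control, against 2942 under KD-1 and 11235 under KD-2. KD-2 stood apart from the other libraries. Its log2 ratio to control was 2.32 (2.25 to 2.39), a 4.99-fold higher level, while that of KD-1 was 0.26 (0.18 to 0.34), or 1.20-fold. Among the 7881 genes averaging at least 1000 reads 0 had a higher log2 ratio in KD-2 than H2afx, and 25 of the 16670 genes averaging at least 10 reads did. Over the scalings and pseudocounts tried, the log2 ratio in KD-2 lay between 2.32 and 2.48. The fibroblast markers were also higher in KD-2, and 0 of 12 reached the log2 ratio of H2afx. In KD-1, where all 12 were below control, H2afx was above it. Their part in the result was not tested.

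Most of the replication-dependent histone genes, many of which carry the stem-loop found in H2afx, were higher in the same library. Their summed reads were 360564 in control, 434926 under KD-1 and 639244 under KD-2. Of the 58 averaging at least 10 reads, 44 were higher in KD-2, 14 within 1.5-fold and 0 lower, with a median log2 ratio of 1.15, where 17.1% of all genes were higher and the median over all genes was -0.02. In KD-1 2 of 58 were higher and 0 lower, with a median of 0.06 beside 0.02 over all genes. The fibroblast markers were above control in KD-2 too, 10 of 12 past 1.5-fold, and 12 of 12 were below it in KD-1. Their part in the result was not tested. The highest in KD-2 were Hist1h2bn (7126, 8387 and 38056 reads in control, KD-1 and KD-2, log2 ratio 2.31 in KD-2) and Hist1h4j (1617, 1868 and 7687 reads, 2.14), and 0 of 58 exceeded H2afx. The lowest were Hist2h2bb (81513, 97877 and 61903 reads, -0.50 in KD-2) and Hist1h1a (-0.44). Hist1h1t, a linker histone gene of the testis, and Hist1h2aa were past 1.5-fold in both knockdowns (1.59 and 1.07 for Hist1h1t, 0.79 and 1.53 for Hist1h2aa). In KD-1 the lowest were Hist1h2bm (-0.35) and Hist1h2be (-0.27).

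Most of these histone genes were higher in KD-2 whether or not a stem-loop was annotated. In KD-2 30 of the 38 genes with it were higher (median log2 ratio 1.05), and 14 of the 20 genes without it (median 1.45). Many annotated transcripts without a stem-loop end at the coding sequence, as those of Hist1h2bn and Hist2h2bb, both of 381 bases. For such genes the annotation cannot show whether the mRNA carries a stem-loop, so the split is one of annotation. Of the windows that H2afx shares with H2A genes, the reads could not be assigned to one gene, and their part in the result was not tested.

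**Figure D3:**
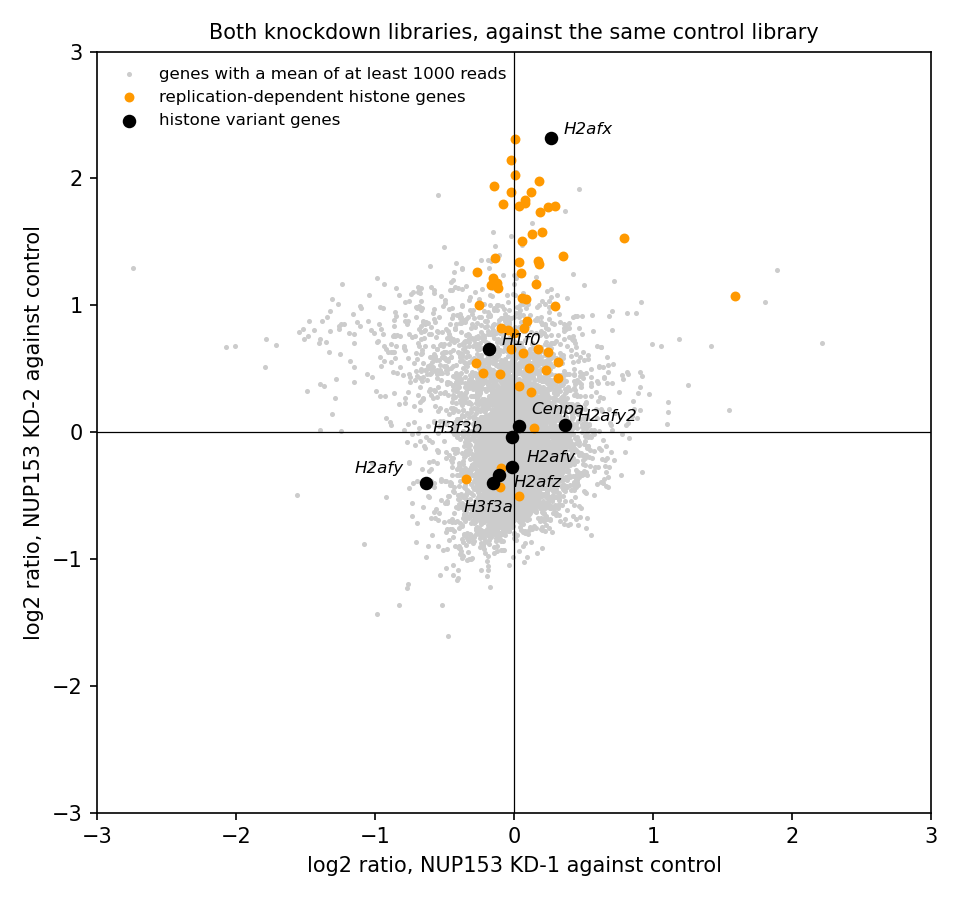
Log2 ratio of scaled reads in NUP153 KD-2 against that in NUP153 KD-1, both against the same control library, for genes averaging at least 1000 reads (grey), replication-dependent histone genes averaging at least 10 reads (orange) and the 9 histone variant genes (black). Both axes run from -3 to 3 and leave out 2 grey genes. H2afx lies at the top of the orange points, at 0.26 and 2.32, H1f0 lies among the lower of them at 0.65 in KD-2, and the other 7 variants lie at 0.06 or below in KD-2.

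Genes that write, read or remove H2AX phosphorylation were listed beside H2afx. Of 8 genes, among them the kinases Atm and Atr, the reader Mdc1 and the phosphatase genes Eya1, Eya3 and Ppp4c, 0 passed 1.5-fold in KD-1 and 1 was lower in KD-2, where 10.2% of all genes were. This was Atr, with 9869 reads in control, against 11793 under KD-1 and 6913 under KD-2 (log2 ratio -0.62 in KD-2). It did not pass the threshold under any of the other scalings, and with library totals Eya1 passed in its place, as the higher gene. Atm had -0.12 under KD-1 and -0.58 under KD-2, Mdc1 0.18 and -0.36, and Ppp4c -0.24 and -0.09. Eya1 was the single gene of the list above control in KD-2 with upper-quartile scaling (log2 ratio of 0.43, from 208 reads in control and 302 in KD-2). The medians were 0.01 under KD-1 and -0.35 under KD-2 (-0.35 to -0.19 over the scalings). The latter differed by -0.19 from that of genes averaging at least 1000 reads. In KD-2 7 of 10 ES cell markers were also below control (median -0.30) and 12 of 12 fibroblast markers above it (median 0.78). Their part in the result was not tested.

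H1.0 is the linker histone that builds up in differentiated and resting cells. H1f0 (chr15:79028450-79030504, + strand, 1 exon) had 2300 reads in control, against 2379 under KD-1 and 3896 under KD-2. It was below control in KD-1, with a log2 ratio of -0.18 (-0.26 to -0.10), and 1.57-fold above it in KD-2, with 0.65 (0.58 to 0.73). Between the knockdowns the log2 ratio was -0.83 (-0.91 to -0.76). The counting interval in KD-2 includes the 1.5-fold threshold, and 518 of the 7881 genes averaging at least 1000 reads were higher. The direction in each library was that of the fibroblast markers, of which 12 of 12 were below control in KD-1 and 10 of 12 had a higher log2 ratio than H1f0 in KD-2. Their part in the result was not tested.

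CENP-A replaces H3 at centromeres. Cenpa (chr5:30666777-30674830, + strand) had 4150 reads in control, against 4981 under KD-1 and 4614 under KD-2. Its log2 ratio was 0.03 under KD-1 (-0.02 to 0.09) and 0.05 under KD-2 (-0.01 to 0.11). Both intervals held 0 with upper-quartile scaling, while over the scalings the ratio ran from -0.03 to 0.06 in KD-1 and from 0.05 to 0.20 in KD-2. Of 8 genes that load CENP-A 0 passed 1.5-fold in KD-1 and 3 were lower in KD-2, among them Hjurp, the CENP-A chaperone, with 262, 278 and 178 reads in control, KD-1 and KD-2 (-0.66 in KD-2). Over all genes 10.2% were lower in KD-2. All 8 were below control in KD-2 under every scaling, as were 49.97% to 64.4% of genes averaging at least 1000 reads. Over the scalings the count of lower genes ran from 0 to 3 and the median from -0.44 to -0.29. The median differed by -0.29 from that of those abundant genes. Of the ES cell markers 7 of 10 were also below control in KD-2 (median -0.30), and 12 of 12 fibroblast markers were above it (median 0.78). The part of these markers was not tested. Rbbp7 was the lowest in KD-1, at -0.35.

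Genes of S phase and mitosis were listed beside the members, most of which are not tied to S phase. Of 6 genes of replication-coupled histone supply, such as the chaperones Nasp and Chaf1a, 0 passed 1.5-fold in KD-1 and 3 were lower in KD-2: Nap1l1 (32624, 40507 and 20294 reads in control, KD-1 and KD-2, log2 ratio -0.79 in KD-2), Nasp (-0.77) and Pcna (-0.71). This count was 2 or 3 over the scalings. The medians were -0.01 under KD-1 and -0.64 under KD-2, the latter between -0.64 and -0.49 over the scalings. The latter differed by -0.49 from that of genes averaging at least 1000 reads. Of 16 G2 and mitosis genes 0 passed 1.5-fold in KD-1 and 4 were lower in KD-2, where 10.2% of all genes were, with medians of 0.03 and -0.44. Top2a, the topoisomerase of chromosome condensation, had 82922, 80804 and 52724 reads (-0.76 in KD-2) and Bub1 -0.65, while Cdc20 had 0.18 and Plk1 0.02. Over the scalings the count of lower mitotic genes in KD-2 ran from 1 to 4, and their median from -0.44 to -0.28. This median differed by -0.28 from that of the abundant genes. In KD-2 6 of the 6 genes of histone supply and 13 of the 16 mitotic genes were below control under every scaling, where 49.97% to 64.4% of genes averaging at least 1000 reads were below it. In the same library 7 of 10 ES cell markers were below control (median -0.30) and 12 of 12 fibroblast markers above it (median 0.78). Their part in the result was not tested.

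Both knockdown libraries were also set against control as a group, in a quasi-likelihood fit of edgeR. It takes its spread from the difference between them (1 residual degree of freedom), drawn toward a trend over all genes. At an adjusted p under 0.05 it called 2 of 21164 genes (0.00945%) and 0 of 9 members, while 1 member, H2afx, and 264 genes had an unadjusted p under 0.05. H2afx had a log2 fold change of 1.63, which joins unlike libraries. Both knockdown libraries were above control, but by a log2 ratio of 2.32 in KD-2 and of 0.26, short of 1.5-fold, in KD-1. Over the other settings of edgeR and the Wald test of DESeq2, the adjusted p of H2afx ran from 0.417 to 1.00. The Wald test of DESeq2 also called 0 of the members, and had H2afx alone at an unadjusted p under 0.05. H2afy came next by size, with a log2 fold change of -0.51 and an adjusted p of 1.00 by edgeR's quasi-likelihood test.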

How the data were processed

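The authors deposited read counts per gene, without normalization, for 1 control, 1 NUP153 KD-1 and 1 NUP153 KD-2 library. Per the labels and the methods, reads were trimmed with Trim Galore 0.4.1 (quality 15), mapped to mm10 with TopHat2 2.1.1 and kept above a mapping quality of 30. The labels name HTSeq and the methods featureCounts as the counter, and the strand counted is not given in the sources used here. Reads that fell on no gene or on several, 23.0% to 25.6% per library, were left out.

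Counts were scaled by upper-quartile factors. RPKM were computed from the counts and GENCODE exon lengths (GRCm38; 23376 of 24421 symbols matched). With 1 library per condition no test of KD-1 or KD-2 was made. The p-values of the group comparison rest on the spread between both knockdown libraries, which carry different shRNAs, and no label says how many cultures stand behind each library. Both edgeR and DESeq2 draw the spread of each gene toward a trend over all genes, so these p-values do not reflect that gene's own spread alone. R 4.3.3, edgeR 4.0.16 and DESeq2 1.42.0 were used. The Python (3.11.15) scripts used numpy 2.4.6, scipy 1.17.1, matplotlib 3.10.9 and pandas 2.3.3. Ratios and the quasi-likelihood test were tested on simulated data.

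The members, lists and settings were chosen with earlier results of these data known. Genes named were the 9 members, Nup153, for each list the 2 highest and 2 lowest log2 ratios in each knockdown and genes past 1.5-fold in both (of these the text gives a part), marker genes, and the 2 genes nearest in both log2 ratios to members past 1.5-fold. Alternatives were TMM, DESeq2 size factors, library totals, an upper-quartile over genes averaging at least 10 reads, a pseudocount of 5, a 2-fold threshold, minimum means of 1 and 100 reads and the Wald test.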

Additional observations from a re-analysis of the deposited data

Results flagged for a closer look

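H1f0 went opposite ways in the knockdowns, below control in KD-1 and above it in KD-2 with counting intervals that left out 0 in both, and the difference of its log2 ratios to control was -0.83. With 1 library per condition this difference was not tested.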

How the results depend on the processing

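The members past 1.5-fold were H2afy in KD-1, and H2afx and H1f0 in KD-2 and between the knockdowns, under TMM, DESeq2 size factors, library totals, the upper-quartile over genes averaging at least 10 reads, a median ratio over genes averaging at least 1000 reads (chosen after seeing the data) and a pseudocount of 5. With a 2-fold threshold 0 members were left in KD-1, 1 in KD-2 and 1 between the knockdowns, H2afx in both of the latter, and 770, 1212 and 1839 of all genes passed in place of 2375, 4547 and 5013. A minimum mean of 100 reads gave 1028, 2852 and 3318 genes, and a minimum of 1 read gave 4409 in KD-1. Of 162 log2 ratios of members under other scalings and the other pseudocount, 89 moved by less than one arm of their counting interval and 73 by more, and 0 of those past 1.5-fold changed sign. The sign of H2afv, H3f3b and Cenpa in KD-1, and of H3f3b in KD-2 and between the knockdowns, changed with the scaling. The quasi-likelihood test called 4 genes with TMM and 1 gene among those averaging at least 10 reads, in place of 2, and the cause was not tested.

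No paired analysis was possible because each condition has 1 library. Leaving out either knockdown library from the group comparison leaves no residual degrees of freedom and gives the single comparison of the other. The depth, at 1071 reads or more per member, keeps counting intervals narrow. These intervals do not cover the spread between cultures, which 1 library per condition does not show.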

Other observations

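Other histone genes outside the clusters included H2afj, which encodes an H2A variant, and which was higher in KD-2 like H2afx. It had 1480 reads in control, against 1802 under KD-1 and 4436 under KD-2, with log2 ratios of 0.06 (counting interval -0.04 to 0.16) and 1.48 (1.39 to 1.56). The fibroblast markers were above control in KD-2 too (12 of 12, log2 ratios 0.37 to 1.30), and H2afj shares windows of sequence with H2afx. The part of either in the result was not tested. H1fx, a linker histone gene, had 34, 54 and 89 reads (0.43 and 1.27), and H2bfm had 63, 80 and 50 reads (0.12 and -0.44). Of 9 such genes in the counts, the other 6 had a mean of fewer than 10 reads.

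Among 12743 genes averaging at least 100 reads, those nearest to H2afx in both log2 ratios were Cebpd, a transcription factor gene (129, 177 and 704 reads in control, KD-1 and KD-2, log2 ratios of 0.23 and 2.34), and Gdf15, which encodes a stress-induced cytokine (71, 112 and 370 reads, 0.43 and 2.27). Only 1 gene, Cebpd, lay within a distance of 0.1 of H2afx on the plane of both log2 ratios, while 11 genes lay as near to H2afy, led by Tgoln1 and Tcf19, and 122 to H1f0, led by Gpr137 and Mapk11. The measure is over 3 libraries and both ratios share the control.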
